A study of Homo sapiens with 12 samples.

Results

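Untreated HK-2 cells, an established line of human kidney proximal tubule epithelium that was immortalised with papillomavirus E6 and E7 genes, made up the control group of the series. The group held 3 of the 12 libraries, Control 1 to Control 3, chosen by their labels alone. The control cells received water and were grown in DMEM/F12 medium with 10% fetal bovine serum and antibiotics. The remaining groups, of 3 libraries each, were the same cells under iohexol (75 mg I/mL), cisplatin (5 µM) or vancomycin (4 mM) for 48 h, and they were used here only to set the baseline against the drug libraries. No hours are given for the controls, and nothing in the labels says that the libraries came from separate cultures, so the spread below is that between these libraries and may be technical. All libraries are of 1 line, and messenger RNA was captured by its poly(A) tail.

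The proximal tubule is the first segment of the nephron after the glomerulus, and it takes back most of the filtered sodium, glucose, amino acids, phosphate and protein. Its cells do this with a brush border of microvilli, sets of solute carriers on both faces, the endocytic receptors megalin and cubilin, and a metabolism that burns fatty acids and makes glucose. When such cells are injured or are grown on plastic they can lose part of this programme, divide, and switch on genes of repair and of matrix, a state called dedifferentiation. The baseline question was therefore which genes of each programme the untreated cells expressed, and how closely the control libraries matched.

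Control 1, 2 and 3 held 14235479, 16589507 and 15574044 counts assigned to genes. A level is given as CPM, the count scaled to the library total after trimmed mean correction of the 3 libraries, or, where genes are compared with each other, as TPM, which also divides by the deposited gene length. A gene was called expressed at a mean of at least 1 CPM, and detected in a library at 3 counts or more, which corresponded to 0.181 to 0.211 CPM. A count of 0 allows a level of up to that same limit. These limits and the intervals of counting cover counting error only.

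Control 1 stood apart from the others before any gene was singled out. On log2(CPM + 1) over the 14234 expressed genes, Pearson's r was 0.9948 between Controls 2 and 3, against 0.9925 and 0.9906 for the pairs with Control 1. These are correlations across genes, which are not independent replicates. Of the 9803 genes of at least 10 CPM, 98 lay more than 1.5-fold below the mean of the other 2 libraries in Control 1 and 5 lay above it. Controls 2 and 3 had 9 and 14 genes beyond 1.5-fold on the high side and 4 and 11 on the low side. The counts of expressed genes below were recomputed without Control 1, and they are given beside the first of them.

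Of the 58735 annotated genes, 14234 (24.2%) were expressed, 14272 without Control 1. A total of 17219 genes were detected in every control library, 5141 in some of them, and 29535 were at 0 in all. Among the 19951 protein-coding genes, 12411 (62.2%) were expressed and 3690 (18.5%) were at 0. The 63 protein-coding genes of at least 1000 CPM are the top of a steep distribution: the 50 most counted genes held 15.2% ± 0.243 (SD, n = 3) of all counts, and the 1000 most counted held 50.5% ± 0.275.

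Protein-coding genes took 97.7% ± 0.0593 of the counts, and 91.9% of the TPM. The 13 protein genes of the mitochondrial genome alone took 4.86%, 4.58% and 4.31% of the counts in Controls 1, 2 and 3. On the length-scaled measure their share was 17.8% ± 0.930 of the TPM, since they are short. Long noncoding genes took 0.768% ± 0.0306 of the counts, with 1089 of 14994 expressed. The 3 with most counts were MALAT1, a nuclear speckle RNA (3397, 3584 and 4218 counts), NORAD, which binds Pumilio proteins (3206, 4084 and 3763), and GAS5, a host of small nucleolar RNAs (2493, 2776 and 2436). Of the NORAD sequence 56.7% also occurs in other genes, so its level is less certain. Pseudogenes took 0.671% of the counts in each library, and 628 of 15224 were expressed. The 3 with most counts were MTND2P28 and MTATP6P1, nuclear copies of mitochondrial genes, and RPL9P9, a copy of a ribosomal protein gene. Of their sequence 57.6%, 64.9% and 92.6% also occurs in other genes, so their reads cannot be placed with certainty. Small and structural RNAs, most of which carry no poly(A) tail, took 0.0159% of the counts, with 14 of 7074 expressed. MIR1244-2, RNU6-26P and MIR1254-1 had the most counts, at 91, 76 and 65, 63, 72 and 80 and 41, 23 and 42, and all of the MIR1244-2 sequence is shared with other genes.

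The most abundant nuclear transcripts were those of the cytoskeleton, iron storage and matrix. ACTG1 and ACTB, the cytoplasmic actins, reached 6542 ± 62.2 and 6425 ± 73.6 TPM (mean ± SD, n = 3). FTL, the ferritin light chain, stood at 6479 ± 282 TPM and TMSB10, an actin monomer binder, at 6062 ± 1129.9 TPM. FN1 (fibronectin, ENSG00000115414, chromosome 2, 215360440 to 215436172 of GRCh38) was the gene with most counts of all, at 290474, 340091 and 331760. Its mean was 20735 CPM, and per length it was the fifth highest nuclear gene at 4534 ± 153 TPM. After it in counts came MT-CO1, MT-RNR2, EEF1A1, MT-CO2, ACTB, ACTG1, MT-ND4, FLNA and MT-CO3, which are genes of the respiratory chain, of translation and of the actin cytoskeleton. The 10 highest TPM values of the whole table were all of mitochondrial genes, led by the cytochrome oxidase subunit MT-CO1 at 35984 ± 2217 TPM. Of the sequence of MT-CO1, MT-CO2, MT-ATP6 and MT-ND2, 67.0%, 50.4%, 64.9% and 57.6% also occurs in other genes, so their levels are less certain. The rest of the 10 had under 50%.

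**Figure D1:**
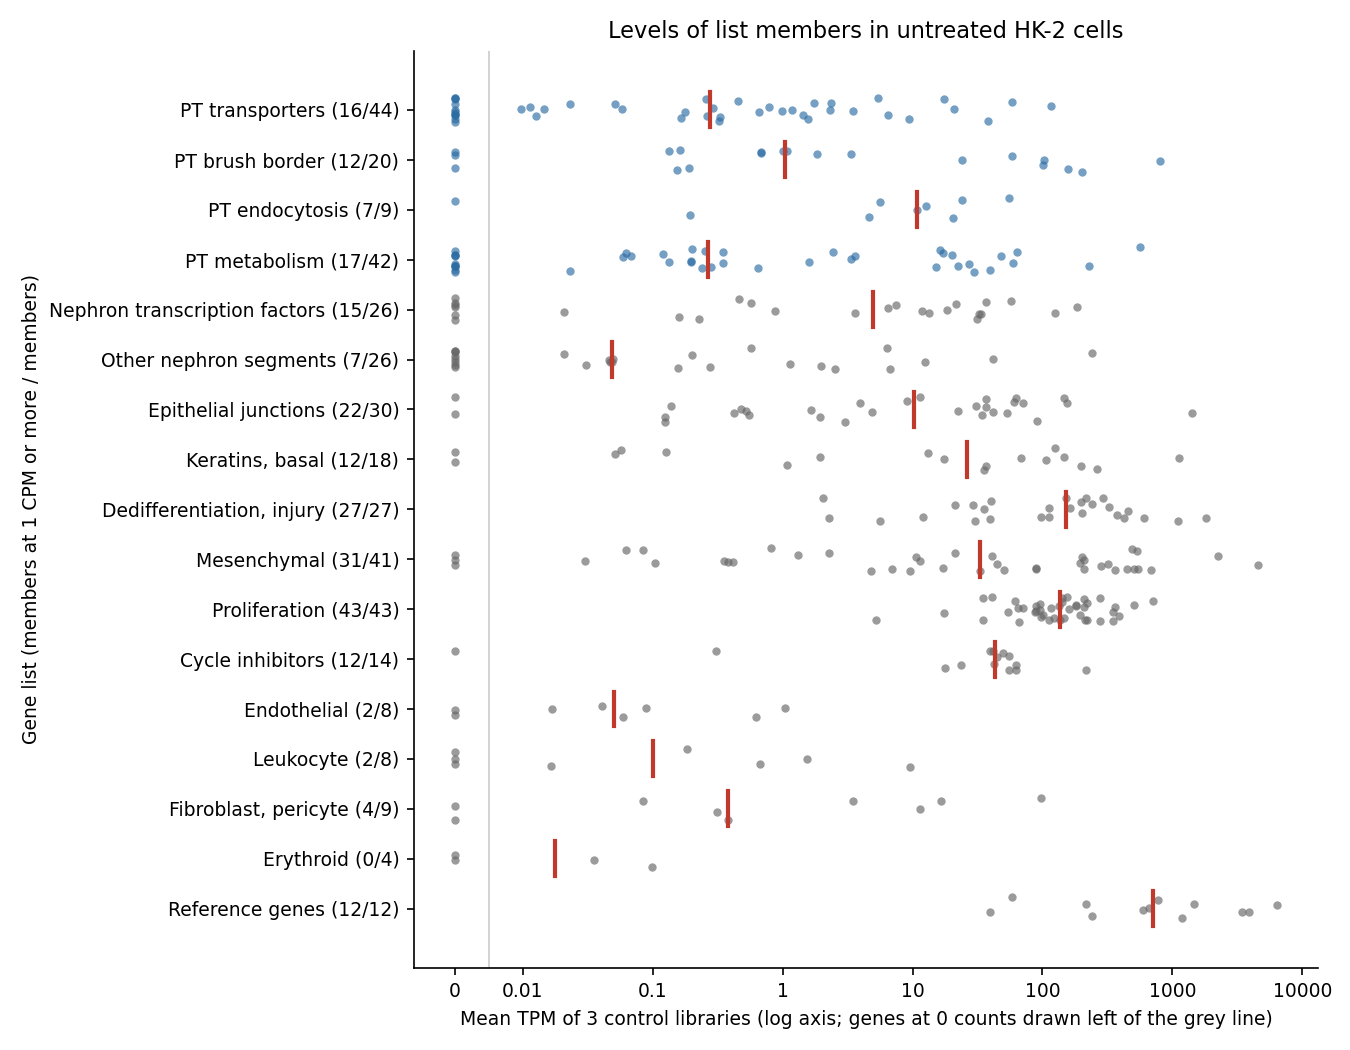
Mean TPM of the 3 control libraries (log axis) for every member of 17 gene lists. Each point is a gene, red bars are list medians, blue marks the proximal tubule (PT) lists, and genes at 0 are drawn left of the grey line. The dedifferentiation and proliferation lists sit at medians of 153 and 136 TPM, while the PT transporter list sits at 0.276 TPM with 11 of its 44 genes at 0. Lists were chosen with earlier results of these data known, so differences between lists are descriptive.

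The label of a proximal tubule epithelial cell was checked first against defining genes of that segment. All lists were chosen with earlier results of these data known, so the shares of members expressed are descriptive. The count of expressed members in each list below is read beside the 62.2% of protein-coding genes expressed. Over the 4 proximal tubule lists, 52 of 115 members (45.2%) were expressed, beside 62.2% of all protein-coding genes. A further 36 members stayed under 3 counts in every library, and 25 of these were at 0, which is 21.7% of the lists beside 18.5% of protein-coding genes. Without Control 1 the expressed members numbered 53. At a threshold of 5 CPM they numbered 34, so 18 of the 52 lay between 1 and 5 CPM.

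Among the solute carriers and channels, 16 of 44 (36.4%) were expressed, beside 62.2% of protein-coding genes, and 6 of them were at 10 CPM or more. ABCB1 (P-glycoprotein, the efflux pump of many drugs) was the highest at 122, 108 and 116 TPM in Controls 1, 2 and 3. SLC4A4, the basolateral sodium bicarbonate cotransporter, followed at 64.6, 52.3 and 57.5 TPM, and ABCC4, an exporter of organic anions, at 41.6, 36.1 and 36.3 TPM. Control 1 was the highest library for each of these genes. Other exporters were low, with ABCC2 at 32, 29 and 34 counts and ABCG2 at 3, 17 and 9. Next in order came SLC16A4 (21.0 ± 1.95 TPM), the organic anion carrier SLCO4C1 (17.3 ± 3.09 TPM), the basolateral amino acid exchanger SLC7A7 (9.38 ± 0.518 TPM), the phosphate and urate carrier SLC17A1 (6.50 ± 1.13 TPM) and the glutamate carrier SLC1A1 (5.43 ± 0.505 TPM).

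Several carriers that define the segment in textbooks had few counts or none. SLC5A2 (SGLT2, the main glucose carrier of the early tubule) gave 12, 21 and 32 counts, and SLC34A1, the main phosphate carrier, gave 4, 2 and 8. AQP1, the water channel of the segment, gave 5, 3 and 4 counts. SLC22A8 (OAT3), which takes up organic anions from blood, had a single count in Control 3. The members at 0 in every control library were SLC5A1, SLC22A6 (OAT1), SLC22A2 (OCT2, an uptake carrier of organic cations), SLC22A12 (URAT1, the urate exchanger), SLC6A19, SLC6A18, SLC13A1, SLC5A8, SLC5A12, SLC36A2 and SLC47A1 (MATE1). Levels under the limit of a count of 0 were not detectable at this depth.

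Megalin and cubilin were split from most of their partners in protein endocytosis. LRP2 (megalin, ENSG00000081479, chromosome 2, 169127109 to 169362685 of GRCh38) gave 0, 0 and 0 counts, and CUBN (cubilin) gave 9, 15 and 8. AMN, which brings cubilin to the surface, was expressed at 3.43, 4.04 and 6.30 TPM. DAB2, the adaptor that binds the megalin tail, stood at 13.7, 12.0 and 12.6 TPM, and FCGRT, the Fc and albumin receptor, at 20.6 ± 2.98 TPM. The lipid phosphatase OCRL (55.2 ± 3.48 TPM), the cystine transporter CTNS (24.0 ± 2.65 TPM) and the chloride proton exchanger CLCN5 (5.60 ± 0.781 TPM) were also expressed, so 7 of 9 members were, with LRP2 and CUBN the exceptions.

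Promoter windows of these receptors and of an expressed gene, PAX8, are shown because they span a range of CG content and of control levels. Each window runs from 250 bases before to 50 bases after a start site in RefSeq (GRCh38.p14), 5′ to 3′ on the strand of the gene. Capitals mark CG dinucleotides in LRP2, at chr2:169362485-169362784, in CUBN, at chr10:17129762-17130061, and in PAX8, at chr2:113278872-113279171, all on the minus strand.
LRP2: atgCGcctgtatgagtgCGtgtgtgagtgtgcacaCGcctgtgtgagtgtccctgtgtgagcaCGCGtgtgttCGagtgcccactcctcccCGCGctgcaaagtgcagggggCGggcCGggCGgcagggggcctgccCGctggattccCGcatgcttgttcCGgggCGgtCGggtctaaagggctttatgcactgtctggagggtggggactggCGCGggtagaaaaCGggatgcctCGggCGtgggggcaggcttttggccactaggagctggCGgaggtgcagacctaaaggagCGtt
CUBN: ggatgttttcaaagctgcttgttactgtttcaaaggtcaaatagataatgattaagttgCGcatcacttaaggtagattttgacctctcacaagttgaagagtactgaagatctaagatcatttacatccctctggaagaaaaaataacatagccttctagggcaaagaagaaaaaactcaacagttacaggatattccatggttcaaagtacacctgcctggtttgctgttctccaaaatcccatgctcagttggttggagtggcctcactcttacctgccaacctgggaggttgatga
PAX8: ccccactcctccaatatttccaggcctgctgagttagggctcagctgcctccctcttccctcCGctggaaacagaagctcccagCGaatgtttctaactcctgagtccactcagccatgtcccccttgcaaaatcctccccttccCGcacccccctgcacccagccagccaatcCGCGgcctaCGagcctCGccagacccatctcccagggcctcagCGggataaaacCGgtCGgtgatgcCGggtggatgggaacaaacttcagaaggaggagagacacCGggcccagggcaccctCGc
The LRP2 window held 23 CG dinucleotides, the CUBN window 1 and the PAX8 window 13.

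Windows were found for 15327 of the 19092 protein-coding genes outside chromosomes 8 and Y (80.3%), and 86.7% of them start within 1000 bases of the gene start in the annotation. The median ratio of observed to expected CG was larger at higher control levels. It was 0.278 for the 2448 genes at 0 and 0.458 for genes under 1 CPM, then 0.785 at 1 to 10 CPM, 0.854 at 10 to 100 CPM and 0.875 at 100 CPM or more. LRP2, at 0 counts, had a ratio of 0.764, above the median of its class, where 585 of 2448 genes (23.9%) reached 0.6 or more. PAX8, at 360.0 CPM, had 0.483, below the median of its class, where 88.5% of genes reached 0.6 or more. The 37 transporter windows (of 44 members) had a median ratio of 0.247. The 4 lists together had windows for 88 of 115 members, under the 80% set for such a check, so no comparison over them was made.

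Of the brush border genes, 12 of 20 were expressed. EZR (ezrin, which ties the membrane to actin) had 765, 817 and 838 TPM in Controls 1 to 3, PDZK1IP1 200.3 ± 7.99 TPM and the scaffold PDZK1 101 ± 6.02 TPM. The peptidase genes GGT1 (gamma-glutamyl transferase) and DPP4 reached 157 ± 23.4 and 102 ± 3.58 TPM, and MME (neprilysin) 23.9 ± 2.37 TPM. Of GGT1 and PDZK1, 61.5% and 70.7% of the sequence also occurs elsewhere in the annotation, so their levels are less certain. ANPEP (aminopeptidase N), a standard brush border marker, was far lower, at 20, 26 and 19 counts and 1.08 ± 0.124 TPM. VIL1 (villin) gave 9, 1 and 3 counts, and MEP1A and MEP1B were at 0 in all 3 libraries.

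In metabolism, 17 of 42 members were expressed. GLUD1, the glutamate dehydrogenase, stood at 226 ± 9.55 TPM. Vitamin D genes were on, with CYP24A1, which degrades the hormone, at 63.9 ± 3.19 TPM and CYP27B1, which makes it, at 3.60 ± 0.504 TPM. UGT2B7, a glucuronidating enzyme, stood at 48.0 ± 2.48 TPM and MIOX, an inositol oxygenase largely restricted to the renal proximal tubule, at 33.2, 42.7 and 43.1 TPM. The urea cycle enzymes ASS1 and ASL stood at 59.4 ± 2.39 and 27.0 ± 4.65 TPM. Of the enzymes particular to gluconeogenesis, PCK1 gave 2, 3 and 0 counts, FBP1 0, 2 and 1 and G6PC 0, 0 and 0, while PCK2, the mitochondrial form of PCK1, was expressed at 29.7 ± 3.12 TPM. The other members at 0 were BHMT2, GLYAT, HAO2, DAO, GSTA1, CYP4A11, FMO1, ACSM2A and ACSM2B.

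**Figure D2:**
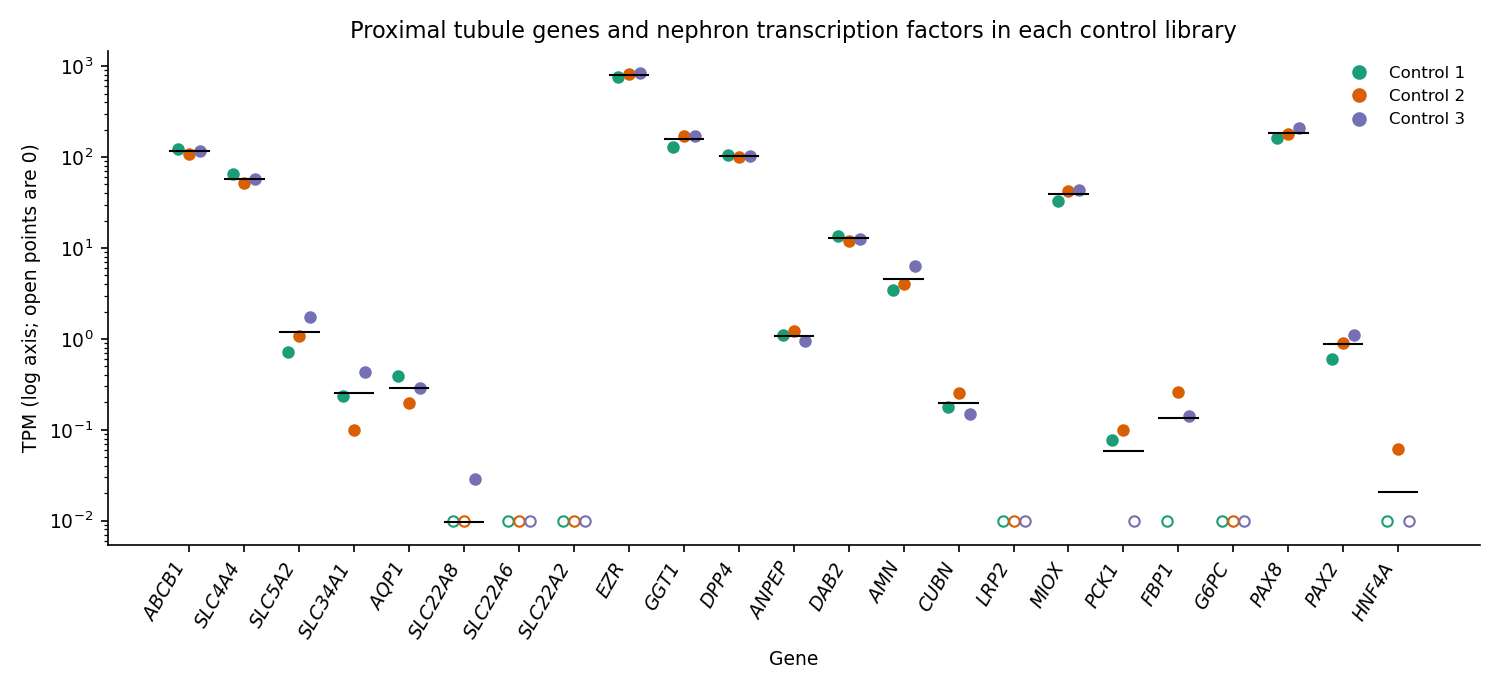
TPM (log axis) of 23 proximal tubule genes and nephron transcription factors in Controls 1, 2 and 3, with black bars for the means and open points for libraries at 0. EZR and PAX8 lie above 100 TPM in every library, while LRP2, SLC22A6, SLC22A2 and G6PC are at 0 in every library.

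Kidney transcription factors ranged from high levels to 0. PAX8, the paired box factor of renal and thyroid epithelium, was the highest of the list at 162, 182 and 209 TPM, with Control 1 the lowest. LHX1, SALL1, SIM1 and IRX3, which pattern the developing nephron, stood at 57.6 ± 3.85, 36.4 ± 3.15, 33.5 ± 4.28 and 32.3 ± 3.85 TPM. HNF4A, the nuclear receptor of the mature proximal tubule, gave 0, 2 and 0 counts. PAX2 was barely expressed at 14, 25 and 28 counts. WT1, CITED1, EYA1, POU3F3, TFAP2B and EMX2, of progenitors or of other segments, were at 0, and in all 15 of 26 members were expressed.

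Markers of podocytes and later nephron segments were mostly low, with 7 of 26 expressed and 8 at 0. The exception in size was CLDN16, a magnesium and calcium pore of the thick ascending limb, at 246, 239 and 234 TPM. SYNPO, an actin regulator of podocyte foot processes that is not restricted to them, stood at 41.7 ± 3.57 TPM, and AVPR2, the vasopressin receptor, at 12.5 ± 2.67 TPM. UMOD, SCNN1B, SLC4A1 and FOXI1 were at 0, and SLC12A1, the carrier that defines the thick ascending limb, gave 1, 3 and 1 counts.

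The epithelial list had 22 of 30 members (73.3%) expressed, beside 62.2% of protein-coding genes. CLDN1, a sealing claudin of tight junctions, led with 1509, 1355 and 1361 TPM, with CLDN16 the next claudin. CDH6, a cadherin of the developing nephron, stood at 154 ± 4.72 TPM, EPCAM at 147 ± 6.37 TPM, JUP (plakoglobin) at 90.6 ± 8.02 TPM and DSP (desmoplakin) at 70.8 ± 0.422 TPM. CLDN2, the cation pore of the proximal tubule, was lower at 30.8 ± 0.636 TPM. CDH1 (E-cadherin) gave only 1, 8 and 1 counts, while CDH2 (N-cadherin), which proximal tubule cells normally carry, gave 3833, 4254 and 4118. CDH16, the kidney-specific cadherin, stood at 11.4 ± 1.65 TPM, and GRHL2 and OVOL1, regulators that hold epithelial identity, were at 0.

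The highest keratins were KRT8, KRT18, KRT80 and KRT7. KRT8 and KRT18, the first pair made in simple epithelia, reached 263 ± 19.8 and 198 ± 8.76 TPM, and KRT7 and KRT19 107 ± 7.89 and 68.5 ± 5.05 TPM. KRT80, an epithelial keratin that is not of the simple type, had 146 ± 7.45 TPM. KRT15, a keratin of basal cells, gave 40, 71 and 58 counts, whereas KRT5 and KRT14, also of basal cells, were at 0, and TP63 gave 1, 8 and 3 counts. LAMB3 and LAMA3, chains of basement membrane laminin, stood at 126 ± 17.0 and 35.3 ± 3.10 TPM.

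All 27 genes of the dedifferentiation and injury list were expressed, beside 62.2% of protein-coding genes, and 16 of them were at 100 TPM or more. The members were chosen with earlier results of these data known, so this share is a description and not a test. Expressed members numbered 26 without Control 3 and 24 at a threshold of 5 CPM. CCL2, a chemokine of the list, gave 15, 11 and 29 counts. SPP1 (osteopontin, a secreted phosphoprotein) led with 1961, 1745 and 1762 TPM. HAVCR1 (KIM-1, the receptor used as a marker of tubular injury) stood at 334, 312 and 324 TPM. Growth factor receptors of the list were MET at 294 ± 19.0 TPM and EGFR at 153 ± 6.60 TPM. CD24 and CD44, surface proteins of regenerating tubule cells, had 426 ± 33.3 and 163 ± 3.55 TPM. The range within the list was wide: SOX9, a factor of tubule repair, had 29.3 ± 0.775 TPM, VCAM1 12.0 ± 0.281 TPM, LCN2 (NGAL, another injury marker) 5.61 ± 1.03 TPM at 29, 37 and 44 counts, and PROM1 (CD133) 2.04 ± 0.0768 TPM.

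Of the mesenchymal list 31 of 41 members (75.6%) were expressed, beside 62.2% of protein-coding genes, and 15 were at 100 TPM or more. Both matrix and contractile genes were found at high levels and near 0. After FN1 the highest were CYR61, a matricellular protein, at 2058, 2308 and 2425 TPM and TGFBI at 679 ± 15.4 TPM. Of the contractile genes MYL9, a myosin light chain, had 361 ± 57.5 TPM, TPM1 (tropomyosin) 284 ± 6.35 TPM, TAGLN (transgelin) 17.3 ± 1.55 TPM and CNN1 (calponin) 9.52 ± 1.20 TPM. VIM (vimentin, the intermediate filament of mesenchymal cells) stood at 463, 433 and 448 TPM and CDH2 at 201 ± 6.18 TPM. The repressors of CDH1 were at lower levels, with SNAI1 at 44.6 ± 0.767 TPM, TWIST1 at 21.2 ± 4.06 TPM, ZEB1 at 10.6 ± 0.643 TPM, SNAI2 at 6.94 ± 0.491 TPM and ZEB2 at 4.80 ± 0.673 TPM. ACTA2 (smooth muscle actin, the marker of myofibroblasts) gave 3, 5 and 6 counts, FAP 4, 0 and 1, POSTN 0, 1 and 6 and COL3A1 2, 2 and 3. COL1A2, CDH11 and TWIST2 were at 0 in every library, although COL1A1, the partner chain of COL1A2 in collagen I, gave 343, 547 and 497 counts.

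Every one of the 43 proliferation genes was expressed, beside 62.2% of protein-coding genes, and 42 of them were at 10 CPM or more. PCNA, the replication clamp, was the highest at 725, 694 and 695 TPM, and MYBL2, TPX2, UBE2C and CDC20 followed at 504 ± 26.4, 388 ± 15.2, 364 ± 12.5 and 349.8 ± 22.9 TPM. TOP2A, which untangles DNA before division, had 375, 337 and 327 TPM and MKI67, the antigen of cycling cells, 189.6, 174 and 177 TPM. The lowest was CCND2, a cyclin of the first gap phase, at 5.21 ± 0.540 TPM beside CCND1 at 222 ± 3.68 TPM. In bulk libraries a change in the share of dividing cells and in the RNA of each cell cannot be told apart, so these levels do not give a share of dividing cells.

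Inhibitors of the cycle were also expressed, 12 of 14. CDKN2A (p16 and p14ARF, which share most of their exons and are counted together) was the highest at 191, 225 and 229 TPM, with Control 1 the lowest. CDKN1A (p21) had 45.8, 56.7 and 61.8 TPM and RB1 70.8, 59.2 and 57.2 TPM. TERT, the catalytic subunit of telomerase, gave 3, 11 and 4 counts. Its RNA subunit TERC, whose mature form lacks a poly(A) tail, was at 0. RNA of RB1 does not measure its protein, which the papillomavirus E7 gene product is known to bind.

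**Figure D3:**
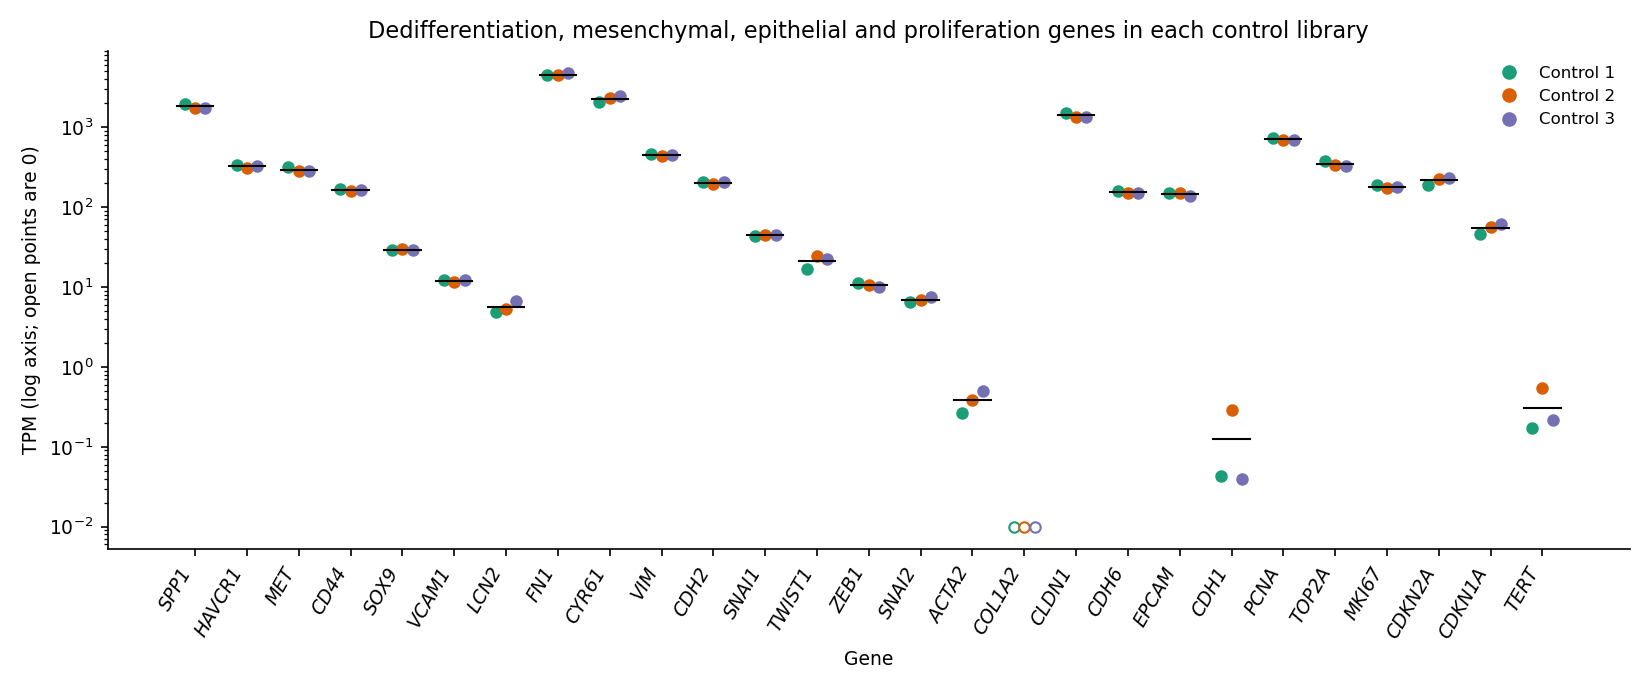
TPM (log axis) of 27 dedifferentiation, mesenchymal, epithelial and proliferation genes in Controls 1, 2 and 3, with black bars for the means and open points for libraries at 0. FN1 lies above 1000 TPM in every library, CDH1 and ACTA2 lie below 1 TPM, and COL1A2 is at 0.

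Defining markers of other cell types were at or near 0 for the most part. Erythroid genes were expressed in 0 of 4 cases, endothelial genes in 2 of 8 and leukocyte genes in 2 of 8. Without Control 2 or without Control 3 the leukocyte genes expressed numbered 1. ERG, an endothelial transcription factor, gave 24, 35 and 38 counts and was the highest of the endothelial list. PECAM1, KDR, FLT1 and CDH5 gave at most 22 counts in a library, PTPRC at most 2, and CD3E was at 0. CSF1R, the receptor of the macrophage growth factor, was the highest of these lists, at 177, 203 and 227 counts. Of the fibroblast and pericyte list 4 of 9 were expressed, led by LUM (lumican) at 111, 94.6 and 85.7 TPM, RGS5 at 16.5 ± 0.550 TPM, COL1A1 at 11.4 ± 1.88 TPM and DCN (decorin) at 3.51 ± 0.135 TPM, whereas PDGFRA was at 0 and PDGFRB gave 10, 8 and 9 counts. Reference genes were all expressed, from TBP at 39.6 ± 1.72 TPM to ACTB.

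Families were counted after the values had been seen, and they serve only as description. Their counts are read beside the 62.2% of all protein-coding genes expressed. Of the 22 SLC22 carriers of organic ions, 7 were expressed, and the highest were SLC22A15 at 11.9 ± 0.940 TPM, SLC22A4 at 8.24 ± 0.298 TPM and SLC22A5, the carnitine carrier, at 6.03 ± 0.527 TPM. Among all 376 SLC genes 221 (58.8%) were expressed, led by SLC25A5, the mitochondrial exchanger of adenine nucleotides, at 704 ± 44.8 TPM and SLC2A1 (GLUT1, the widespread glucose carrier) at 585 ± 49.9 TPM. SLC2A2 (GLUT2), the basolateral glucose carrier of the early proximal tubule, gave 29, 21 and 15 counts. Of 12 aquaporins only AQP11 was expressed, at 53, 37 and 36 counts. Cytochrome P450 genes were expressed in 13 of 55 cases and UDP-glucuronosyltransferases in 1 of 21, UGT2B7.

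HOX genes, which mark position along the body axis, were expressed in 30 of 39 cases (76.9%), beside 62.2% of protein-coding genes. HOXA9 (95.3 ± 4.32 TPM), HOXB9 (66.9 ± 2.95 TPM) and HOXB7 (49.6 ± 5.27 TPM) were the highest, and HOXB1, HOXC12, HOXD12 and HOXD13 were at 0. Of 1547 genes that the deposited table marks as transcription factors, 1099 (71.0%) were expressed. The share was lowest in the homeobox family (85 of 192) and high among C2H2 zinc fingers (518 of 629). YBX1, a cold shock protein that binds RNA and DNA, was the highest at 2086 ± 153 TPM. ID1 had 762 ± 19.6 TPM, HMGA1 662 ± 98.6 TPM, MYC 452 ± 8.40 TPM and HIF1A 408 ± 43.6 TPM.

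The genes that the study followed up, chosen there on all of these samples, were low in the untreated cells except for one. TNFAIP6 (TSG-6, a hyaluronan-binding protein) gave 184, 212 and 159 counts. TLR4, a receptor of bacterial lipopolysaccharide, gave 7, 5 and 8, AOC3, an amine oxidase of vessels and fat, 6, 7 and 11, and IRF4, a lymphoid transcription factor, 1, 3 and 3.

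Whether the 0 values belong to the untreated cells alone was read from the drug libraries, which held 14057282 to 18177109 counts. Of the 25 proximal tubule genes at 0 in the controls, 9 were at 0 in all 12 libraries, SLC22A6 and SLC22A12 among them, and 16 stayed under 3 counts in each drug library. The highest count of any of the 25 in any drug library was 6, for SLC22A2 under iohexol. LRP2 gave 0, 0 and 1 counts under iohexol, 0, 1 and 0 under cisplatin and 3, 2 and 0 under vancomycin. With factors set over all 12 libraries, the members at 1 CPM or more numbered 53 of 115 in the controls, 57 under iohexol, 49 under cisplatin and 51 under vancomycin. The matching share of all genes was not counted for the drug groups, and 18 members lay between 1 and 5 CPM in the controls. These numbers are therefore not read as alike or different between groups. DPP4, counted in every group, was at 141, 210, 71.1 and 566 CPM in the same order. The proliferation list had 43 of 43 members at 1 CPM or more in all 4 groups. In the controls 42 of the 43 were at 10 CPM or more, so this count cannot show a change in level. With the same factors MKI67 was at 634 CPM in the controls and at 512, 592 and 284 CPM under iohexol, cisplatin and vancomycin. CDK1 was at 209, 163, 282 and 96.8 CPM in that order. Differences between groups were not tested.

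The spread between the control libraries was larger than counting alone gives for many genes. The biological coefficient of variation (edgeR, the square root of the common dispersion over 14395 genes) was 9.26%, and 5.16% from Controls 2 and 3 alone. The same measure was 4.06% in the cisplatin libraries, 9.47% in the vancomycin libraries and 12.8% in the iohexol libraries. A chi-square test of equal proportions (2 degrees of freedom, Benjamini-Hochberg adjusted) called 6151 of 16878 genes (36.4%) at an adjusted p below 0.05, against 1242 of 17212 (7.22%) when only Controls 2 and 3 were compared. This test asks whether libraries differ beyond counting, not whether any condition acts.

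The share called was larger at higher levels. It was 18.5% at 1 to 10 CPM, where the median coefficient of variation was 17.6% and the counting value was 13.9%. That counting value is the expected SD over the mean, and a median coefficient of 3 libraries tends to fall below it. They are therefore unlike measures. At 10 to 100 CPM the values were 43.8%, 8.22% and 4.38%, at 100 to 1000 CPM 75.4%, 6.03% and 1.95%, and at 1000 CPM or more 92.2%, 5.27% and 0.660%. Between Controls 2 and 3 the median coefficient was 4.43% at 10 to 100 CPM and 2.12% at 1000 CPM or more. A coefficient from 2 libraries comes out lower than one from 3 at equal spread. These values are therefore not compared with those over all controls or with the counting values.

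**Figure D4:**
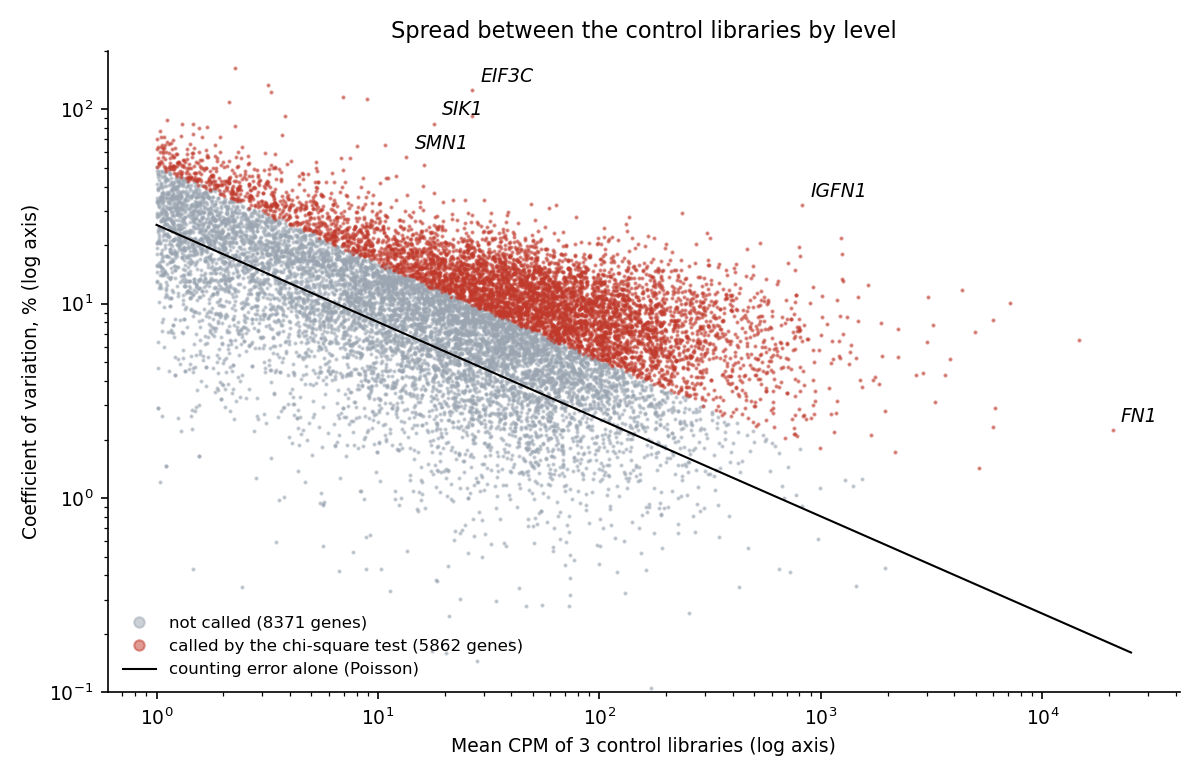
Coefficient of variation (%, log axis) of CPM over the 3 control libraries against mean CPM (log axis), 1 point per gene. Red genes were called by the chi-square test at an adjusted p below 0.05. The black line is the expected SD over the mean from counting alone at the mean depth. EIF3C and SIK1 lie at the top of the cloud, while FN1 lies at the far right.

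The spread within the lists lay on both sides of that of all genes. The median coefficient of variation over all 9803 genes of at least 10 CPM was 7.61%. The median coefficient of variation was 6.07% over the 24 dedifferentiation genes of at least 10 CPM, 6.31% over 42 proliferation genes, 7.33% over 26 mesenchymal genes, 9.00% over 6 transporters and 9.39% over the epithelial list. The chi-square test called 28 of 43 proliferation genes, 13 of 27 dedifferentiation genes, 16 of 33 tested mesenchymal genes and 21 of 58 tested proximal tubule genes. It called 36.4% of all genes tested and 41.7% of the protein-coding genes tested. Since the share called follows the level, these counts are read with the level and not between lists. HAVCR1, PCNA, CDH2 and MYC were not called, and GGT1, PAX8, CDKN2A and CLDN1 were.

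The deviation of Control 1 followed the base composition of the genes. The 9802 genes of at least 10 CPM with a GC value were cut into 4 classes of equal size. In the class of lowest GC content (27.8 to 42.3%) the median log2 ratio of Control 1 to the mean of the other libraries was 0.17, and it was 0.07, -0.08 and -0.24 in the following classes. Control 3 went the other way, from -0.12 to 0.15, and Control 2 from -0.05 to 0.09. Control 1 is part of the mean that both were compared with, so a slope in it alone gives them opposite slopes. Their medians are therefore not a separate result. By length the medians of Control 1 ran only from -0.06 in the shortest class to 0.04 in the longest. In the 855 genes of both the GC-rich and the shortest class, the median of Control 1 was -0.25, and over the whole series Iohexol 3 was lower at -0.41 within its own group, while the other 10 libraries lay between -0.13 and 0.24. Whether base composition set the differences of single genes was not tested.

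**Figure D5:**
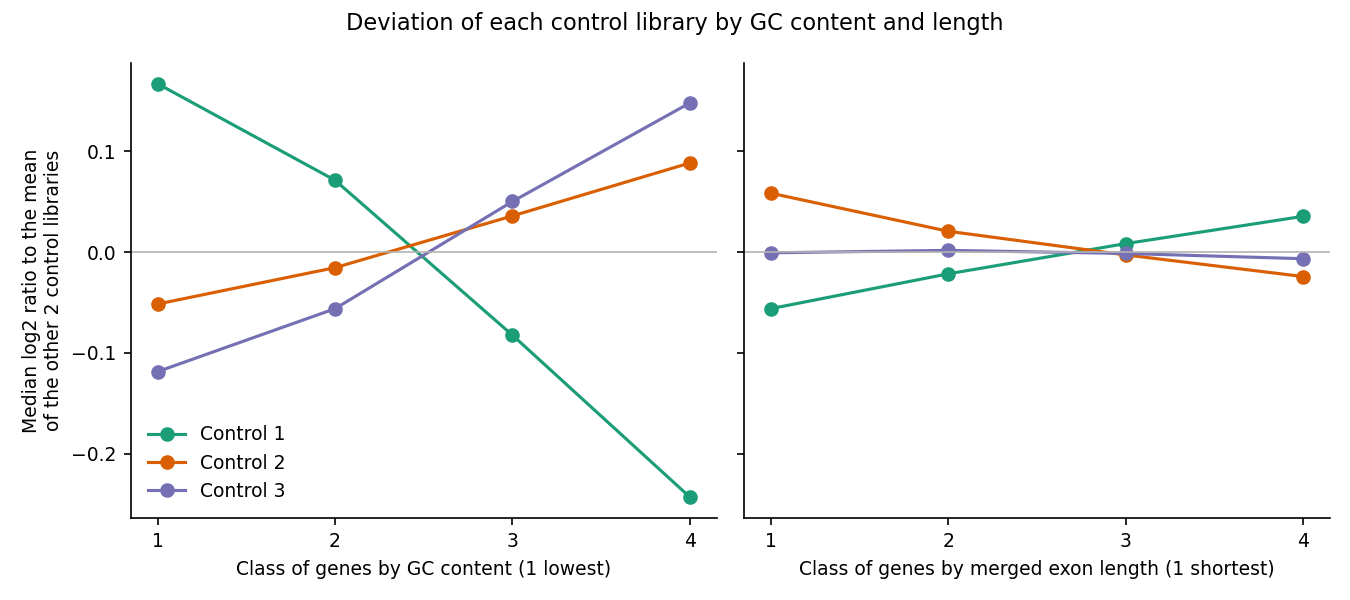
Median log2 ratio of each control library to the mean of the other 2, for 4 equal classes of the 9802 genes of at least 10 CPM by GC content (left) and by merged exon length (right). Control 1 falls from 0.17 to -0.24 across GC classes and moves by no more than 0.06 from 0 across length classes.

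The genes that differed most between the controls included several with near-identical copies. The highest CPM was 9.00 times the lowest for EIF3C, a translation initiation factor subunit, at 104, 121 and 1022 counts. AL450405.1 had a ratio of 5.15, and SIK1, a salt-inducible kinase, had 122, 579 and 154 counts and a ratio of 4.13. The rest of the 10 were CBS (3.45), C6orf48 (3.36), SMN1 (3.30), TAF10 (2.77), PSMB10 (2.69), AC009299.2 (2.49) and PFDN6 (2.41), and Control 1 was the lowest library in 8 of the 10. For the 3 largest ratios, however, 1 other library stood high and Control 1 lay near the remaining one. EIF3C had 7.27, 7.36 and 65.4 CPM, AL450405.1 had 10.7, 14.3 and 55.1, and SIK1 had 8.53, 35.2 and 9.85. At least 50% of the sequence was shared with another gene for 7 of the 10, beside 3.59% of all 9803 genes of at least 10 CPM. Of the 100 largest ratios 18 were of such genes.

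Adding the copies narrowed some of these ratios. SIK1 with SIK1B differed 1.70-fold and CBS with CBSL 2.20-fold, while EIF3C with EIF3CL still differed 7.41-fold and SMN1 with SMN2 2.91-fold. Of the 10 largest ratios at 50 CPM or more, 3 were of such genes. There the largest ratio of a gene with under 50% shared sequence was that of IGFN1, an immunoglobulin-like muscle protein, at 8042, 13309 and 17047 counts and a ratio of 1.94.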

How the data were processed

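Poly(A) RNA of HK-2 cells was measured by RNA-seq in 12 libraries. The authors deposited raw counts per gene. Per the labels' processing notes, CASAVA 1.8, fastp, HISAT2 2.0.5, featureCounts 1.5.0-p3 and DESeq2 1.20.0 were used, and the build, annotation and strand setting are not given in the sources used here. All 58735 gene positions and lengths equal those of GENCODE 29 (GRCh38), with the length the merged exons of every isoform, so TPM understates genes with long rare isoforms. Without a stated strand setting, overlapping antisense genes cannot be told apart. Reads carry no molecular identifiers.

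From the counts, CPM was computed with trimmed mean (TMM) factors of the 3 control libraries (edgeR 4.0.16, R 4.3.3), and TPM from the deposited length. Control totals were 14235479 to 16589507. The control libraries were compared by a chi-square test of equal proportions (expected count of at least 5, Benjamini-Hochberg) and by the edgeR common dispersion (filterByExpr, minimum count 10), with DESeq2 1.42.0 as an alternative. Both were tested on simulated data. No groups were compared by a test. Shared sequence is the percent of 31-base words, sampled every 5 bases, found in another gene. Gene lists and members were chosen with earlier results of these data known, and families after the values were seen. Named were the 10 genes with most counts, with the highest TPM and with the largest ratio between libraries (at least 10 CPM), the 3 with most counts of each noncoding class, up to 8 highest members of each list, list members at 0, and fixed defining genes. Some genes that this rule names are not reported here. Where 2 gene IDs carry the symbol RGS5, the lower ID was used. Scaling, thresholds, length measure and leaving out each library were varied. Transcription factor marks are a column of the deposited table.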

Additional observations from a re-analysis of the deposited data

Results flagged for a closer look

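Genes at 0 counts in all control libraries but with 3 or more counts in every library of a drug lie outside the baseline description. The rule picks genes for higher counts under the drug, so that excess is not itself a result. There were 20 such genes under iohexol, 55 under cisplatin and 55 under vancomycin, of which 3, 10 and 23 were protein coding, out of 29024 genes at 0 in the controls, with the sex-linked genes of the Y chromosome left out of the search. In the other direction, 1, 18 and 17 genes had 3 or more counts in every control library and 0 in every library of the drug.

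All were low. The highest mean was 1.20 CPM under iohexol, 1.23 CPM under cisplatin and 3.57 CPM under vancomycin, against the control limit of 0.181 to 0.211 CPM that a count of 0 allows. DRGX, a homeobox factor of sensory neurons, gave 13, 25 and 17 counts under iohexol and 18, 12 and 20 under cisplatin. The other iohexol genes with the highest levels were AC007406.1 (12, 7 and 11 counts) and RPL15P13 (9, 8 and 8). Under cisplatin CCK, the gut hormone cholecystokinin, gave 23, 23 and 15 counts and AC022217.2 gave 9, 29 and 8. Under vancomycin HIST1H4C, a replication histone whose mRNA normally ends without a poly(A) tail, gave 53, 52 and 63 counts, the pseudogene AC078817.1 gave 40, 47 and 50, and RN7SKP203 gave 32, 29 and 37. These differences between groups were not tested here.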

How the results depend on the processing

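Leaving out each library gave 17738 to 18070 detected genes, 14179 to 14272 expressed genes, 12390 to 12422 expressed protein-coding genes, 240 to 244 expressed list places (of 242 in the full set, genes on 2 lists counted on each) and 51 to 53 expressed proximal tubule members. The number of genes called by the chi-square test ranged from 1242 without Control 1 to 5608 without Control 2, beside 6151 with all 3. The biological coefficient of variation ranged from 5.16% to 11.6%, beside 9.26%, and was 6.37% as the median gene-wise value of DESeq2. The cause was not tested, and with 2 libraries the chi-square test also has 1 degree of freedom less. Expressed proximal tubule members numbered 34 at 5 CPM, beside 52. Of 180 recomputed list counts 168 stayed within 1.5 times, and 5 of the 12 that did not were at 5 CPM. TMM over 12 libraries gave 14321 expressed genes and a TPM threshold gave 17547, or 16066 with the median transcript length, a length chosen after the data had been seen. At 50 CPM, 3 of the 10 largest ratios, not 7, were of genes with shared sequence.

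Shares by biotype moved by more than 1 SD with the measure. As a share of TPM they were 91.9% for protein-coding genes, 1.44% for long noncoding genes, 3.04% for pseudogenes, 0.547% for small RNAs and 1.96% for mitochondrial rRNA. Over genes of at least 10 counts in every library the first 4 were 97.9%, 0.666%, 0.619% and 0.00362%. Without the mitochondrial genome the first 3 were 98.4%, 0.812% and 0.709%. Leaving out 1 library cannot move a mean of 3 values by 1 SD of those same values, so that limit is no check here. With each library left out in turn, the shares ranged from 97.7% to 97.8%, 0.750% to 0.778%, 0.671% to 0.671%, 0.0152% to 0.0163% and 0.728% to 0.805%. Genes under 3 counts in each library cannot be told from 0 at this depth. No paired analysis was possible because the report rests on 1 group and compares no groups by a test.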
